A study of Gallus gallus with 24 samples.

Results

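The duodenum of newly hatched broiler chicks was compared with liver, whole brain and breast muscle at the same age. The chicks were Ross broilers, a commercial meat strain, given as male in the labels, and no treatment is named. Duodenum at hatch (day 0) is represented by 3 arrays of the 24 in the series, and it was set against 3 arrays each of liver, whole brain and breast muscle from hatch, 12 arrays in all. Each array carried a pool of RNA from 4 to 5 chicks, and the 12 arrays from day 7 served only as a second look at the same genes. The tissues were taken right after the chicks left the egg. Nothing in the labels says whether the 4 tissues came from the same chicks, so the p-values measure the spread between these pools.

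The duodenum is the first segment of the small intestine. Its villi are covered by absorptive cells whose apical membrane, the brush border, carries digestive enzymes and transporters, with mucus-secreting goblet cells, hormone-secreting enteroendocrine cells and dividing crypt cells among and below them. Layers of smooth muscle and a network of neurons surround this lining. In birds the pancreas lies inside the loop of the duodenum, and at hatch the nutrient supply passes from yolk lipid to feed rich in starch and protein.

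Of 11180 genes tested, 793 were higher in duodenum than in each of the other 3 tissues (7.09%) and 205 were lower than in each (1.83%). The measured quantity was the array signal, a relative measure of transcript abundance that can be compared between arrays for 1 gene but not between genes. A gene counted as higher or lower when its log2 signal differed from all 3 other tissues in the same direction and the largest of the 3 limma p-values stayed under 0.05 after adjustment over all probe sets. Only probe sets with at least 1 tissue mean of 102.9 or more were tested (the signal filter). A gene dim in the other tissues could therefore enter only through its duodenum signal, which favours higher calls. The size given throughout is the smallest of the 3 log2 differences, that is, the distance to the nearest other tissue, with its standard error. By this measure 250 genes were at least 4-fold higher (2.24%) and 19 at least 4-fold lower (0.17%). Over the 24710 probe sets tested, unnamed ones included, 5.3% were higher and 1.57% lower, with 1.83% and 0.138% past 4-fold. Among all genes tested, the median difference from the brightest other tissue was -0.59 on the log2 scale, and that from the dimmest was 0.68. The 3 comparisons share the same duodenum arrays, so they are not independent of each other.

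**Figure D1:**
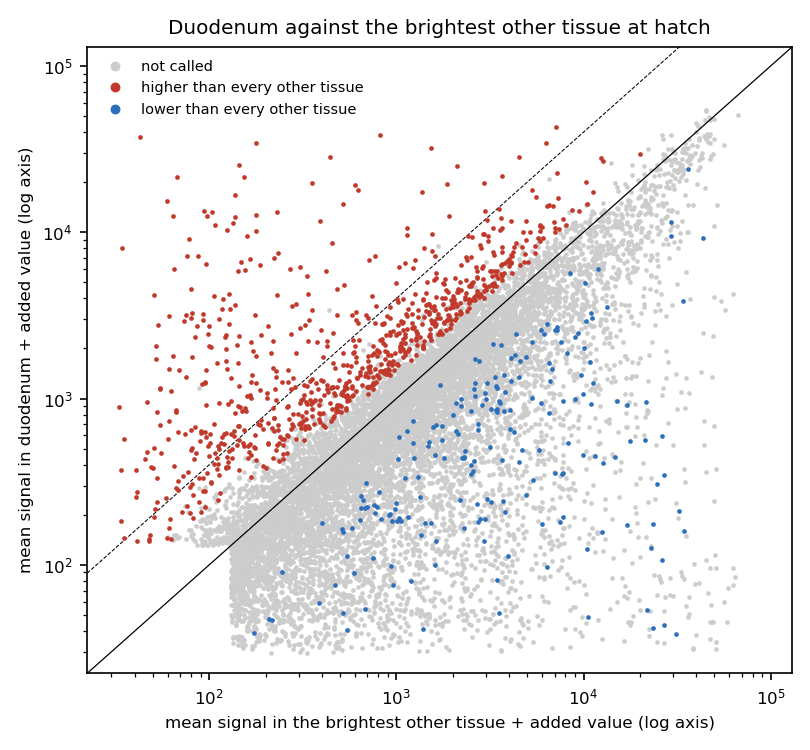
Mean duodenum signal at hatch (vertical, log axis) against the highest of the 3 other tissue means (horizontal, log axis), 1 point for each of 11180 genes, with 27.8 added to both; the solid line marks equality and the dashed line a 4-fold excess. The 793 genes called higher (red) lie above the solid line and the 205 called lower (blue) below it.

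The tissue labels were set against markers of each tissue. The duodenum pools carried intestinal markers that were near background in the other tissues, among them villin and the caudal homeobox factors CDX1 and CDX2 described below. Villin, CDX1 and CDX2 passed the signal filter through their duodenum mean alone. The epithelial markers EPCAM and ANPEP, also described below, were bright in liver too. Liver plasma protein genes summed to signals of 7122 to 8598 per duodenum array against 1012319 to 1100169 in liver, neuronal genes to 5106 to 5571 against 185311 to 199782 in brain, and fast skeletal muscle genes to 4409 to 5695 against 521191 to 532087 in breast muscle. Across probe sets, duodenum arrays correlated with each other at 0.933 to 0.979, with liver at 0.756 to 0.796, with breast muscle at 0.669 to 0.719 and with brain at 0.577 to 0.634. Duodenum pool 2 stood apart in its hybridisation controls, transcripts added to each sample before hybridisation, with a mean of 21687 against 6211 to 9180 on the other 11 arrays from hatch. Its median signal was 132, against 88.6 and 100.1 in duodenum pools 1 and 3. The W-linked gene HINTW, which male birds lack, gave signals of 1797 to 15934 on the 12 arrays, at odds with the label male. It was lowest in pool 1 of all 4 tissues at hatch, and in pool 2 of all 4 at day 7.

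The genes that set duodenum furthest apart included many of nutrient uptake. Among the 15 genes with the largest excess were the peptide transporter SLC15A1, the amino acid transporter SLC6A19, the retinol carrier RBP2 and 3 brush border enzymes. RBP2, a cytosolic protein that binds retinol inside enterocytes, gave 20943, 19397 and 23965 in the 3 duodenum pools and 5.18 to 45.4 (median 10.4) on the 9 other arrays. Every duodenum value lay far above the brightest other array. RBP2 exceeded liver, the nearest tissue, by 8.31 ± 0.22 log2 units (adjusted p = 8.19e-12). SLC15A1, which moves di- and tripeptides across the brush border with protons, gave 13545, 19686 and 12692 in duodenum and 2.73 to 59.4 (median 10.1) on the 9 other arrays, a smallest difference of 8.10 ± 0.35 (adjusted p = 6.04e-10). No pool of another tissue came near the duodenum range for either transcript. The choice of these 15 genes required pools that do not overlap, so the separation is no separate evidence. RBP2 and SLC15A1 passed the signal filter through their duodenum mean alone, which favours higher calls.

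**Figure D2:**
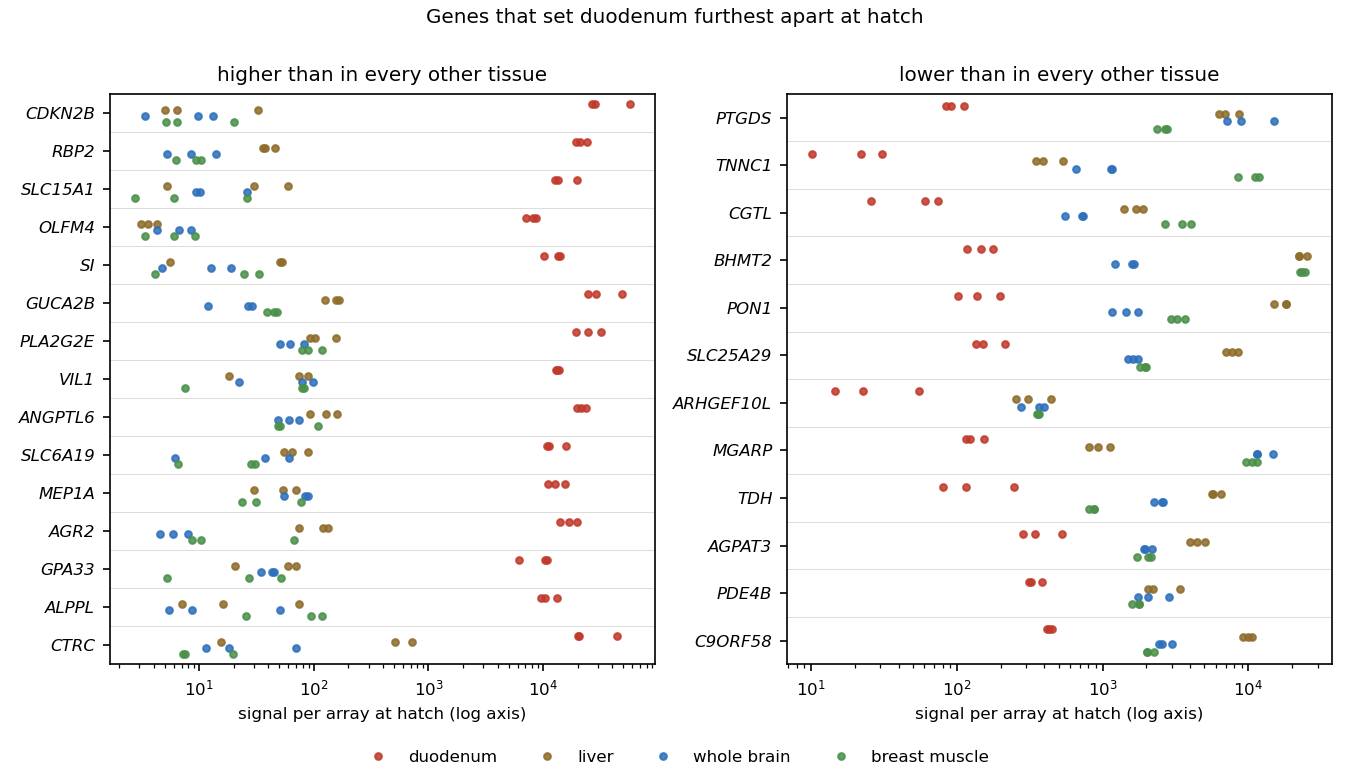
Signal on each of the 12 arrays from hatch (horizontal, log axis) for the 15 genes with the largest excess in duodenum (left) and the 12 genes with the largest deficit (right), 3 points per tissue. The 3 duodenum points (red) lie above all 9 others in the left panel and below all 9 others in the right panel, which the choice of these genes required.

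Enzymes of the brush border were high already at hatch. Of 17 enzymes on the array, all tested, 10 were higher than in every other tissue, 9 of them at least 4-fold, and none was lower at an unadjusted p under 0.05. Sucrase-isomaltase, SI, which splits sucrose and the branch points of starch, gave 13485, 10233 and 13996 in the duodenum pools and 4.13 to 52.2 (median 19.0) on the 9 other arrays. Its 3 duodenum values were close together and the other 9 arrays lay at or near background, a difference of 7.72 ± 0.35 (adjusted p = 9.18e-10). MGAM, maltase-glucoamylase, gave 6281, 4409 and 7223 and exceeded breast muscle, its nearest tissue, by 4.44 ± 0.36. MEP1A and MEP1B, the subunits of the metalloprotease meprin, exceeded the nearest tissue by 6.99 ± 0.29 and 5.39 ± 0.34. SI, MEP1A and MEP1B passed the signal filter through their duodenum mean alone, which favours higher calls. The same holds for ALPPL and TMPRSS15, described below.

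Peptidases and other enzymes of the same membrane were higher too. ENPEP (aminopeptidase A), MME (neprilysin) and DPP4 (dipeptidyl peptidase 4) were higher by 5.29 ± 0.34, 4.84 ± 0.29 and 3.69 ± 0.26. ANPEP (aminopeptidase N) gave 11929, 10656 and 12107 in duodenum and 6895 ± 362 in liver, and its excess over liver was 0.74 ± 0.15 (adjusted p = 0.0035). ANPEP missed the threshold after median centring (adjusted p = 0.147), and it was no longer called without liver pools 2 and 3, at 0.66. ALPPL, annotated as an alkaline phosphatase, gave 10468, 9494 and 13224 and exceeded breast muscle by 6.80 ± 0.45. TMPRSS15, enteropeptidase, the enzyme that activates pancreatic trypsinogen in the gut lumen, gave 2840.2, 3816 and 2831 against 6.36 to 52.2 (median 14.4) on the 9 other arrays. Lactase, LCT, gave low signals in every tissue at hatch, with 107, 231 and 105 in duodenum and 17.0 to 141 (median 89.9) on the 9 other arrays. The lactase values of duodenum and the other tissues overlapped, and its adjusted p was 1.

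Genes of the microvillus scaffold were also higher. Of 12 genes of brush border structure, 9 were higher than in every other tissue and 7 at least 4-fold. VIL1, villin, which bundles and severs actin, gave 13084, 13340.3 and 13834 in duodenum and 7.44 to 98.3 (median 78.0) on the 9 other arrays. Villin separated the tissues without overlap, at 7.27 ± 0.45 (adjusted p = 2.13e-08). PLS1, the actin bundler plastin 1, MYO7B, a motor at microvillus tips, and CDHR2, a cadherin that links microvilli, were higher by 4.96 ± 0.24, 4.39 ± 0.30 and 4.05 ± 0.26. EZR, ezrin, which ties actin to the membrane, was also bright in liver (3033 ± 121) and the excess was 1.94 ± 0.14. CDH17, the cadherin of intestinal epithelium, gave 10768, 12197 and 11160.2 and exceeded liver by 6.49 ± 0.34. VIL1 and MYO7B passed the signal filter through their duodenum mean alone, which favours higher calls.

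Some transporters were near background in the other tissues and others were brighter in liver. Of 7 sugar transporters, 2 were called higher. SLC5A1, the sodium-coupled glucose carrier of the brush border, gave 6674, 5872 and 6685 against 13.4 to 112 (median 50.5) on the 9 other arrays, a difference of 6.10 ± 0.32 (adjusted p = 3.30e-09). SLC5A9, a sodium-coupled mannose carrier, was higher by 3.07 ± 0.42 and fell below the stricter of the signal filters. SLC5A1 and SLC5A9 passed the signal filter through their duodenum mean alone. The facilitative carriers SLC2A2 and SLC2A5, for glucose and fructose, were lower in duodenum than in liver, with log2 differences of -2.67 ± 0.26 and -2.02 ± 0.32. SLC2A5 gave 414, 195 and 250.1 in duodenum and 1208 ± 189 in liver at hatch, and at day 7 it was called higher than in every other tissue.

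Of 16 peptide and amino acid transporters tested, 6 were higher and 1 was lower. SLC6A19, the carrier of neutral amino acids, gave 11188, 15707 and 10709 and was higher by 7.01 ± 0.34. SLC7A9 and SLC3A1, the light and heavy chain of the carrier for cystine and basic amino acids, were higher by 5.05 ± 0.36 and 1.80 ± 0.17. SLC7A6, an exchanger of the basolateral membrane, was higher by 2.55 ± 0.16. SLC38A2, a carrier of small neutral amino acids, was the lower one at -0.77 ± 0.16 (adjusted p = 0.00438). Its other tested probe set was not called, and it missed the threshold without liver pools 2 and 3 (adjusted p = 0.0633).

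Among 22 genes of mineral and vitamin uptake, 6 were higher and 2 at least 4-fold. SLC34A2, the sodium-phosphate carrier of the gut, gave 4561, 4901 and 4117 against 3.58 to 90.9 (median 38.3) on the 9 other arrays, at 5.99 ± 0.35. VDR, the vitamin D receptor, was higher by 2.33 ± 0.27, CYBRD1, a ferric reductase of the brush border, by 1.91 ± 0.36, and CUBN, part of the receptor for vitamin B12 with intrinsic factor, by 1.76 ± 0.31. Other probe sets for CUBN were not called. Calbindin, CALB1, the calcium buffer that vitamin D induces in chick gut, did not pass at hatch. It gave 1516, 911 and 1549 in duodenum and 1012 ± 308 in brain, with an adjusted p of 1, and at day 7 it was called higher by 3.57.

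Genes of ion and water movement were called in both directions, with 9 of 22 higher, 5 of them at least 4-fold, and 3 lower. GUCA2B, uroguanylin, a peptide that stimulates chloride and fluid secretion, gave 24659.9, 49089 and 28741 and 11.8 to 166 (median 45.1) on the 9 other arrays. It was higher by 7.54 ± 0.25 (adjusted p = 4.04e-11), and its receptor GUCY2C, a guanylate cyclase, was higher by 4.03 ± 0.35. SLC26A6, a chloride and bicarbonate exchanger, and ATP12A, a proton pump, were higher by 4.21 ± 0.37 and 4.36 ± 0.32. CFTR, the chloride channel, gave 332, 119.9 and 296 in duodenum and 2.66 to 74.7 (median 7.95) on the 9 other arrays, at 1.45 ± 0.35 (adjusted p = 0.0156). CFTR missed the threshold without duodenum pool 1 (adjusted p = 0.107) or pool 3 (0.0952). The carbonic anhydrases CA13 and CA4 and the water channel AQP1 were the 3 lower genes, at -1.79 ± 0.21, -1.20 ± 0.23 and -0.91 ± 0.15.

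Lipid genes were for the most part higher than in brain and breast muscle, and many were lower than in liver. Of 23 genes of lipid absorption and lipoproteins, 2 were higher than in every other tissue (8.7%, beside 7.09% of all genes). Of the same 23, 17 were higher than in brain and 15 higher than in breast muscle. Over all genes, 35.7% were higher than in brain and 29.8% higher than in breast muscle. In the comparison with liver alone, 5 were higher and 11 lower, against 27.1% and 18.6% of all genes. With array weights 4 were called above every tissue. The 2 genes above all tissues were FABP2, the intestinal fatty acid binding protein, with 3283, 3233 and 3837 in duodenum and 102 ± 31.8 in liver (4.77 ± 0.32), and MOGAT2, which rebuilds triglyceride from monoglyceride, at 5.10 ± 0.34. FABP2 and MOGAT2 passed the signal filter through their duodenum mean alone, which favours higher calls. FABP1, the fatty acid binding protein of liver, gave 34870.1, 66472 and 41576 in duodenum and 49485 ± 3099 in liver. The FABP1 values of the 2 tissues overlapped, and the difference from liver was -0.11 ± 0.28. APOB, the structural protein of lipoproteins, differed from liver by -1.86 ± 0.33 and from brain by 7.20 ± 0.33. MTTP, which loads lipid onto APOB, differed from liver by -0.20 ± 0.22 and from breast muscle by 6.45 ± 0.22. APOA4, an apolipoprotein of gut and liver, differed from liver by -2.06 ± 0.26 at hatch, and at day 7 its difference from the brightest other tissue was 0.11.

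Retinoid genes joined RBP2 in part, with 4 of 12 higher and 1 lower. ALDH1A1, an enzyme that makes retinoic acid, gave 18197, 20743 and 20175 and 2909.6 ± 850.0 in liver, at 2.79 ± 0.25. ISX, a homeobox factor that represses the uptake of carotenoids in mammals, was higher by 3.16 ± 0.33, and BCO1, which cleaves beta-carotene, by 1.34 ± 0.31 (adjusted p = 0.0118). ALDH1A2, another retinoic acid enzyme, was lower, at -1.15 ± 0.19, and its other tested probe set was not called. Without liver pools 2 and 3, BCO1 and ALDH1A2 missed the threshold (adjusted p = 0.152 and 0.0814).

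Of 25 genes of bile acid and xenobiotic handling, 6 were higher and 1 lower, and liver was the nearest tissue for most. FGF19, a hormone released by the gut in response to bile acids, gave 926, 574 and 936 against 3.93 to 162 (median 71.7) on the 9 other arrays, at 2.42 ± 0.35. NR0B2, a nuclear receptor of bile acid feedback, gave 4446, 5087 and 5251 and 1752 ± 309 in liver, at 1.49 ± 0.32. GSTA3 and CYP3A4, which act on foreign compounds, were higher by 2.63 ± 0.17 and 1.11 ± 0.21. Without liver pools 2 and 3, 3 of the 6 kept their call, and NR0B2, CYP3A4 and ABCC3, an export pump, lost it (adjusted p = 0.0979, 0.212 and 0.129).

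**Figure D3:**
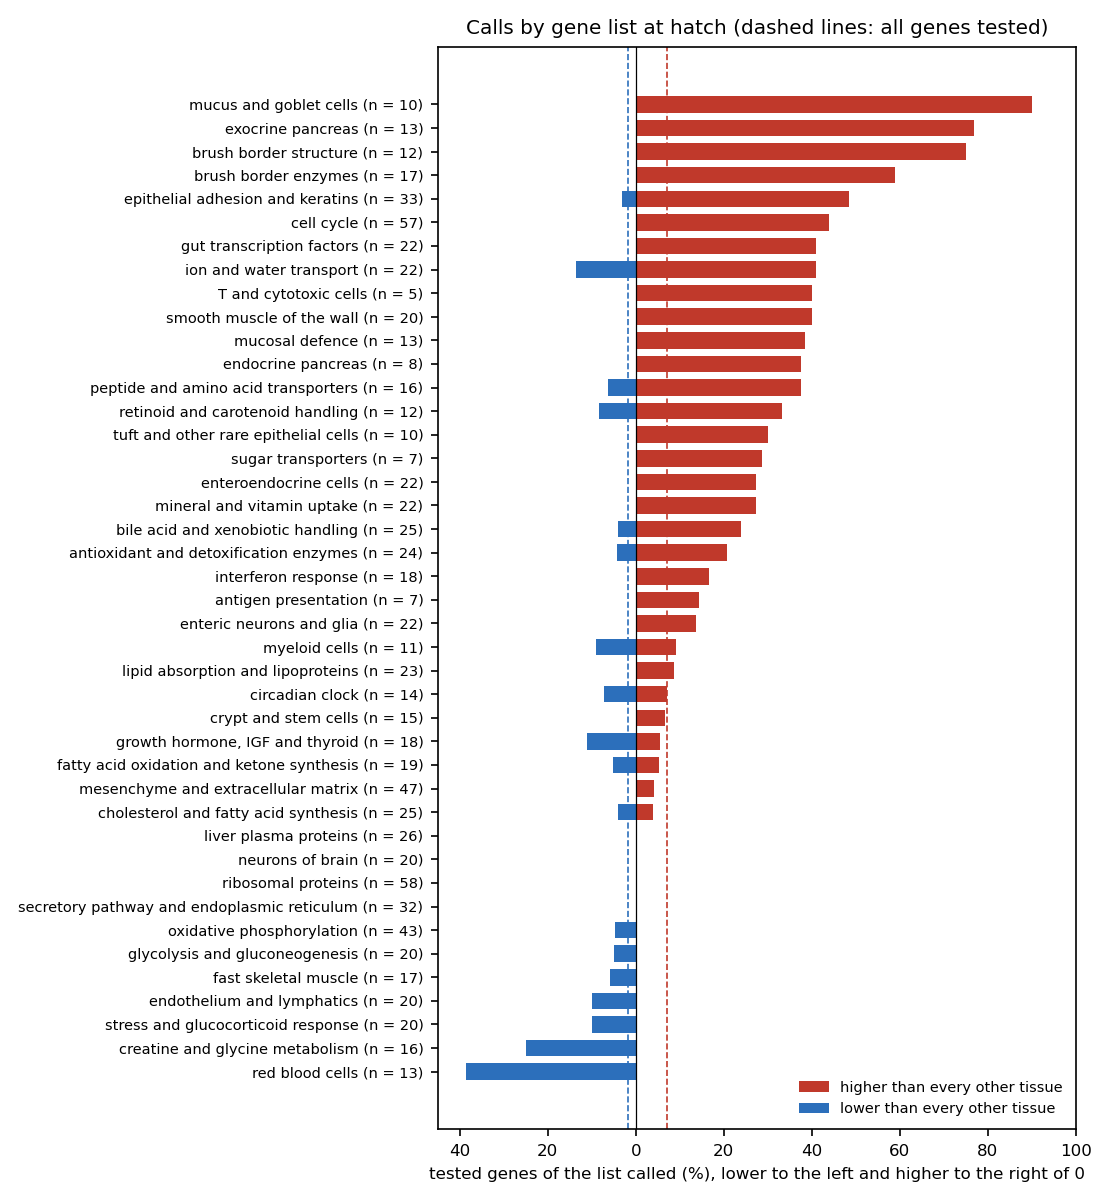
Share of the tested genes of each list called higher (red, right of 0) or lower (blue, left of 0) in duodenum than in every other tissue at hatch, in percent, for lists with at least 5 tested genes; n is the number tested and the dashed lines are the shares over all 11180 genes, 7.09% and 1.83%. Mucus and goblet cell genes (9 of 10), exocrine pancreas genes (10 of 13) and brush border genes have the longest red bars, and red blood cell genes (5 of 13) the longest blue bar. Genes dim in the other tissues could be tested only through their duodenum signal, which favours red calls.

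Transcription factors that specify the gut lining were near background in the other tissues in several cases. Of 30 on the array, 8 were too dim to test. Of the 22 tested, 9 were higher and 7 at least 4-fold. CDX2, the homeobox factor that specifies intestine, gave 3632, 8987 and 5446 against 2.26 to 68.5 (median 14.3) on the 9 other arrays, at 6.60 ± 0.47 (adjusted p = 9.17e-08), and CDX1 was higher by 4.77 ± 0.30. ELF3, an epithelial factor, and HNF4G, a nuclear receptor of enterocytes, were higher by 3.69 ± 0.29 and 2.19 ± 0.32. HNF4A, shared by gut and liver, gave 3516, 2397 and 5004 in duodenum and 1757 ± 416 in liver, and it missed the threshold (adjusted p = 0.083). NKX2-5, a homeobox factor best known from heart, was higher by 3.40 ± 0.41 and GATA5, a factor of gut endoderm and heart, by 1.78 ± 0.27. GATA5 missed the threshold with 1 added to the signal (adjusted p = 0.268). With only the brightest probe sets kept, 5 were called. CDX2, CDX1, HNF4G and NKX2-5 passed the signal filter through their duodenum mean alone, which favours higher calls.

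Goblet cell genes were the list with the largest share called, 9 of 10 tested, although 5 more of the 15 on the array were too dim to test. AGR2, a chaperone needed for mucin folding, gave 13962, 19561 and 16715 and was higher by 6.95 ± 0.33. FCGBP, a component of mucus, CLCA1, a protease secreted with mucus, and TFF3, a trefoil peptide, were higher by 6.58 ± 0.36, 6.36 ± 0.38 and 3.83 ± 0.43. MUC2, the main mucin of intestine, was dim, with 118, 176 and 122 in duodenum and 1.94 to 51.8 (median 15.1) on the 9 other arrays. The MUC2 pools did not overlap, but its difference was only 1.56 ± 0.39 (adjusted p = 0.0211). It lost the call with 1 added to the signal (adjusted p = 0.173), and without duodenum pool 2 (0.0708), duodenum pool 3 (0.0551) or breast muscle pool 3 (0.113). MUC2, FCGBP, CLCA1 and TFF3 passed the signal filter through their duodenum mean alone.

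Several gut hormones were bright in duodenum and near background elsewhere. Of 22 enteroendocrine genes, 6 were higher and 4 at least 4-fold. GIP, an incretin released by nutrients, gave 4516, 3588 and 4175 and 1.59 to 123 (median 36.1) on the 9 other arrays. SCT, secretin, which stimulates bicarbonate secretion, and MLN, motilin, which drives contractions between meals, were higher by 5.30 ± 0.33 and 2.72 ± 0.32, beside 5.33 ± 0.37 for GIP. TPH1, which makes serotonin in gut cells, was dim and was higher by 2.07 ± 0.31. Chromogranin A, CHGA, of secretory granules, gave 6654, 5461 and 8071 in duodenum and 6112 ± 1479 in brain and was not called (adjusted p = 1). Of the 22 genes, 8 exceeded brain and 9 were lower than in brain (35.7% and 28.1% of all genes). In the same list 18 exceeded liver (27.1% of all genes did). Of 10 genes of tuft and other rare epithelial cells, 3 were higher (1 with 1 added to the signal, after median centring, after quantile normalization or without duodenum pool 3). TRPM5, a channel of tuft cells, chemosensory cells of the epithelium, gave 542, 316 and 767 and was higher by 3.94 ± 0.34. GIP, SCT, TPH1 and TRPM5 passed the signal filter through their duodenum mean alone, which favours higher calls.

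OLFM4 was the single called member among 15 crypt and stem cell genes. In mammals it marks crypt cells. It gave 7097, 8225 and 8637 in duodenum and 3.10 to 9.21 (median 4.27) on the 9 other arrays, at 7.87 ± 0.25 (adjusted p = 3.35e-11). Cell cycle genes were in part above every other tissue. Of 57 tested, 25 were higher than in every other tissue and none was lower, with no unadjusted p under 0.05 for a lower one, but just 1 was at least 4-fold. All 57 were higher than in brain and all 57 higher than in breast muscle, whereas 29 were higher than in liver. Over all genes the shares were 35.7%, 29.8% and 27.1%. CDK1, the kinase that starts mitosis, gave 9308, 14559 and 11109.9 in duodenum and 4900.3 ± 670.3 in liver, at 1.23 ± 0.18, and MKI67, a marker of dividing cells, gave 7728, 6719.8 and 7245 and 3281 ± 482, at 1.14 ± 0.17. ANLN, a protein of the contractile ring, was the one past 4-fold at 2.45 ± 0.27. After median centring of the arrays 17 were called. At day 7 the number was 5 of the 57, when 7.84% of all genes tested at both ages were called higher. The difference between the ages in this list was not tested.

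Epithelial junction and keratin genes also stood out, with 16 of 33 higher, 10 of them at least 4-fold, and 1 lower. KRT7, a keratin of simple epithelia, gave 18575, 17528 and 18004 and 248 to 699 (median 530.3) on the 9 other arrays, at 4.87 ± 0.26. EPCAM, a cell adhesion protein of epithelium, gave 27934, 68182 and 32688 in duodenum and 7078 ± 454 in liver, at 2.48 ± 0.32. TSPAN8, TSPAN1 and the junction protein CLDN10 were higher by 4.92 ± 0.31, 4.35 ± 0.29 and 3.74 ± 0.23. E-cadherin, CDH1, gave 18228, 39781 and 18440.1 in duodenum and 18161 ± 291 in liver and was not called, at 0.39 ± 0.33 (adjusted p = 1). CLDN5, a junction protein of blood vessels, was the lower member at -0.93 ± 0.19, not called without liver pools 2 and 3 (adjusted p = 0.0967).

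Smooth muscle genes were in part above every other tissue. Of 20 tested, 8 were higher (40%, beside 7.09% of all genes), 7 of them at least 4-fold, and none was lower. Against breast muscle alone 11 of the 20 were higher and 5 lower, beside 29.8% and 23.7% of all genes. ACTG2, the gamma actin of enteric smooth muscle, gave 27927, 32093 and 35892 and 28.5 to 1814 (median 1263) on the 9 other arrays, at 4.39 ± 0.24. MYH11, the smooth muscle myosin heavy chain, gave 20601, 24698 and 20315 and 3624 ± 18.2 in liver, at 2.58 ± 0.17, and TAGLN and CSRP1, proteins of the contractile apparatus, were higher by 3.52 ± 0.25 and 3.08 ± 0.16. Of 22 genes of enteric neurons and glia, 3 were higher. In the comparison with brain alone 5 were above brain and 15 below it (35.7% and 28.1% of all genes were). VIP, a relaxing transmitter of the gut wall, gave 2664, 2227 and 2715 in duodenum and 929 ± 92.0 in brain, at 1.42 ± 0.20. GAL, galanin, was higher by 3.05 ± 0.36 and CHRNA3, a nicotinic receptor subunit of peripheral ganglia, by 1.69 ± 0.29.

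Immune genes were called higher in the lists of mucosal defence and of T and cytotoxic cells, and several of them gave low signals. Of 14 genes of T and cytotoxic cells on the array, 5 were tested and 9 were too dim. CD3E and CD3D, CD3 chains of the T cell receptor complex, were the 2 of those 5 called higher. They gave 360.4, 283 and 305 and 382, 403 and 512, at 2.29 ± 0.42 and 1.46 ± 0.35. CD3D lost its call with 1 added to the signal (adjusted p = 0.255), without liver pool 2 or liver pool 3, or without duodenum pool 3 (0.0787). It was also lost without both of these liver pools, at 1.33. Of 6 genes of B and plasma cells on the array, 1 was bright enough to test, and limma called it in neither direction, also not at an unadjusted p under 0.05. Of 13 mucosal defence genes, 5 were higher. Among them were REG4, a secreted lectin, at 5.11 ± 0.35, the cytokine receptor IL22RA1 at 3.05 ± 0.28 and the chemokine CCL20 at 2.63 ± 0.42. Against liver alone 6 of the 13 were higher and 5 lower, beside 27.1% and 18.6% of all genes. The summed signal of the mucosal defence list was 28242 to 32608 in liver and 11871 to 14645 in duodenum. Of 11 myeloid genes, 10 were lower than in liver (18.6% of all genes were) and 8 higher than in brain (35.7% of all genes were). CSF1R, the receptor for the macrophage growth factor, was lower than in all 3 tissues at -0.78 ± 0.16. LYN, of the same list, was called higher than in all 3 and lost that call in 11 of 23 alternatives.

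Genes of the exocrine pancreas were among the largest differences. Of 13 tested, 10 were higher in duodenum and all 10 were at least 4-fold higher. Their summed signal was 100597 to 177284 on the duodenum arrays, 4098 to 6214 in liver, 1059 to 1305 in brain and 3370.5 to 3767 in breast muscle. CTRC, chymotrypsin C, gave 20586, 44151 and 20303 and 7.16 to 711 (median 18.1) on the 9 other arrays, at 6.68 ± 0.75 (adjusted p = 1.44e-05). AMY2A, pancreatic amylase, gave 24437, 64110.4 and 26549, with pool 2 the highest. CEL, CPB1, PRSS2 and CPA1, a lipase and 3 proteases of pancreatic juice, were higher by 6.67 ± 0.49, 6.34 ± 0.59, 6.09 ± 0.43 and 5.90 ± 0.54. REG1A, a secreted pancreatic protein in mammals, gave 4.21, 7.00 and 3.56 and was at background in duodenum.

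The same genes were uneven among the liver pools. CTRC gave 15.5, 513 and 711 in liver pools 1, 2 and 3, CPA1 gave 3.08, 169 and 189, and glucagon, GCG, of pancreatic islets and gut, gave 51.6, 2335 and 1566. Pools 2 and 3 of liver were thus above pool 1 for all 3 transcripts. With liver pools 2 and 3 left out, the smallest difference was 8.88 for CTRC and 7.31 for CPA1, and all 10 genes kept their call. Of 8 genes of the endocrine pancreas, 3 were higher (none with 1 added to the signal), among them INS, insulin, with 733, 607 and 823 in duodenum and 147, 348 and 411 in liver, at 1.28 ± 0.34 (adjusted p = 0.029). INS was not called without duodenum pool 1, duodenum pool 3 or liver pool 1 (adjusted p = 0.0965, 0.128 and 0.164). How much pancreatic tissue entered the duodenum pools was not tested. In pooled whole tissue, fewer cells of a type and less RNA per cell cannot be told apart.

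**Figure D4:**
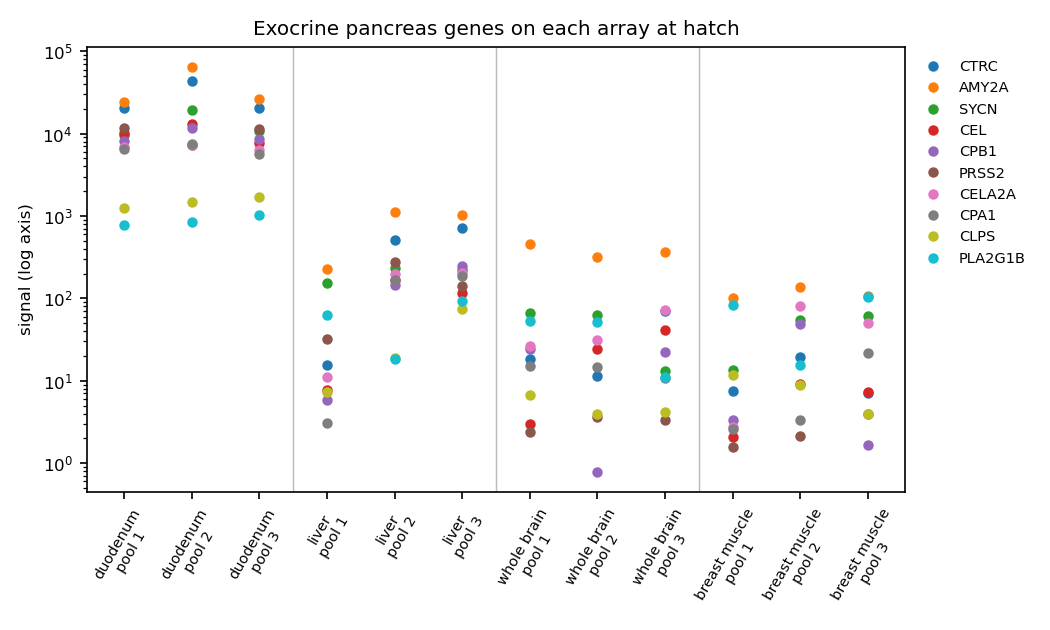
Signal of the 10 exocrine pancreas genes called higher in duodenum (vertical, log axis) on each of the 12 arrays from hatch, 1 colour per gene. The lowest duodenum value among them is 773, while in liver pools 2 and 3 CTRC reaches 513 and 711 against 15.5 in pool 1.

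Some of the strongest contrasts belong to genes in none of the lists above. The probe set annotated to CDKN2B, an inhibitor of cell cycle kinases, had the largest difference of all, with 26515, 57474 and 28217 in duodenum and 3.38 to 32.8 (median 6.43) on the 9 other arrays, at 9.75 ± 0.33 (adjusted p = 4.04e-11). It is the only probe set for that gene on the array. At day 7 the difference from the brightest other tissue was 4.78 and that from the dimmest was 10.03. At hatch these were 9.75 and 9.91. The age difference of CDKN2B, taken against the mean of the other 3 tissues, did not pass the test described below. PLA2G2E, a secreted phospholipase, gave 19314, 31920.4 and 24406 and was higher by 7.44 ± 0.24. ANGPTL6, a secreted angiopoietin-like protein, gave 19776, 21407 and 23455 and was higher by 7.15 ± 0.25. GPA33, a surface antigen of intestinal epithelium, and SLC22A13, an organic anion carrier, were higher by 6.89 ± 0.35 and 5.10 ± 0.30.

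Across the 793 higher genes, liver was the nearest tissue for 466 (58.8%), brain for 170 (21.4%) and breast muscle for 157 (19.8%). The 3 duodenum pools lay above all 9 other arrays for 792 of the 793, against 1315 of all 11180 genes (11.8%). They lay below all 9 for 201 of the 205 lower genes, against 421 of all (3.77%). The calls were made on the same arrays, so this separation largely follows from them and is no separate evidence. The median difference over all probe sets was 0.12 between duodenum and liver as deposited and 0.00 after median centring.

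Genes lower in duodenum than in every other tissue were fewer. Some belonged to lists that also held higher genes, such as ion and water transport. PTGDS, which makes prostaglandin D2 and is secreted into cerebrospinal fluid, gave 112, 85.1 and 91.8 in duodenum and 2359 to 15033 (median 6876) on the 9 other arrays. All 9 other arrays lay far above the highest duodenum pool, and the smallest difference, from breast muscle, was -4.40 ± 0.22 (adjusted p = 1.76e-09). TNNC1, troponin C of slow and cardiac muscle, gave 22.1, 10.1 and 30.6 against 353 to 11807 (median 1137) on the 9 other arrays, at -3.22 ± 0.24 from liver. Enzymes of methyl group and amino acid metabolism were also among them. BHMT2, a methyltransferase of the homocysteine and methionine cycle, gave 118, 146 and 178 in duodenum, 23239.7 ± 1816 in liver, 1482 ± 232 in brain and 23425 ± 795 in breast muscle, at -3.11 ± 0.15.

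PON1, an esterase carried on lipoproteins, gave 197, 138 and 103 and was lower, at -3.11 ± 0.19. SLC25A29, a mitochondrial carrier of basic amino acids, was lower, at -3.11 ± 0.16 and TDH, threonine dehydrogenase, at -2.44 ± 0.24. MGARP, a mitochondrial protein, gave 123, 153 and 116 in duodenum and 12540.4 ± 1899 in brain, at -2.63 ± 0.16 from liver. The gene that the array's annotation calls CGTL gave 25.9, 74.0 and 61.0, at -3.14 ± 0.24, and it was not called at day 7. PDE4B, which degrades cyclic AMP, and AGPAT3, an acyltransferase of phospholipid synthesis, were lower, at -2.25 ± 0.20 and -2.31 ± 0.19. For AGPAT3, MGARP and PDE4B, other tested probe sets of the gene were not called lower.

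Red blood cell genes formed the list with the largest lower share, 5 of 13, with none higher at an unadjusted p under 0.05. Their summed signal was 5463 to 7914 in duodenum, 21077 to 24392 in brain, 39518 to 47414 in liver and 52406 to 59792 in breast muscle. HBA1, an alpha globin, gave 2804, 4681 and 4059.5 in duodenum and 11512 to 36102 (median 30734) on the 9 other arrays, at -1.78 ± 0.16 (adjusted p = 1.21e-06). The duodenum pools lay below all others. HBAD, another alpha-type globin, SLC4A1, the anion exchanger of red cells, and ANK1, an anchor of their membrane skeleton, were lower, at -1.62 ± 0.17, -1.68 ± 0.30 and -1.73 ± 0.19. Another tested probe set of ANK1 was not called. The amount of blood in each tissue was not tested.

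In the list of creatine and glycine metabolism, 4 of 16 were lower and none higher at an unadjusted p under 0.05. PSAT1 and PSPH, the last steps of serine synthesis from glycolysis, gave 282, 387 and 284 and 190.4, 206 and 155 in duodenum and 26946 ± 4696 and 32356 ± 2647 in liver, and were lower than their nearest tissue, breast muscle for PSAT1 and brain for PSPH, with differences of -1.41 ± 0.17 and -1.26 ± 0.20. Other tested probe sets of PSPH and CBS were not called. CBS and CDO1, enzymes of cysteine formation and breakdown, passed less firmly (adjusted p = 0.0321 and 0.0465), and the count was 2 when duodenum pool 2 or 3, liver pool 2 or 3, or brain pool 2 or 3 was left out. Of 20 stress and glucocorticoid response genes, FKBP5 and KLF9, both induced by glucocorticoids, were lower, at -1.19 ± 0.16 and -1.06 ± 0.14. Of 20 endothelial genes, CLDN5 and VWF, the clotting protein of vessel walls, were lower, VWF at -1.06 ± 0.12, with another tested probe set of VWF not called. Of 43 genes of oxidative phosphorylation, NDUFA4 and NDUFS4 were lower, at -0.98 ± 0.12 and -0.74 ± 0.20. Against liver alone 32 of the 43 were lower, beside 18.6% of all genes. NDUFS4 lost its call in 11 of 23 alternatives, and its other tested probe set was not called.

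Ribosomal and secretory genes gave no calls. Of 58 ribosomal protein genes, limma called none higher or lower than every other tissue, with 1 higher and 0 lower at an unadjusted p under 0.05. Against brain alone 56 of the 58 were higher, beside 35.7% of all genes. After quantile normalization 4 of the 58 were called higher than every other tissue. Of 32 genes of the secretory pathway, none was called in either direction, with 1 higher and 1 lower at an unadjusted p under 0.05. Of 26 liver plasma protein genes, all were lower than in liver (18.6% of all genes were). None was called against every tissue, with 0 at an unadjusted p under 0.05. Of 47 genes of mesenchyme and extracellular matrix, 2 were higher, SFRP1, an inhibitor of Wnt signals, by 1.94 ± 0.24 and TGFBI, a matrix protein, by 0.90 ± 0.19. Median centring left 1 call and quantile normalization gave 4. Just 6 of these 47 exceeded breast muscle, while 35 exceeded liver, against 29.8% and 27.1% of all genes.

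The day 7 arrays gave the same contrast in other pools of older chicks. Duodenum pool 1 of day 7 stood apart in its hybridisation controls, with a mean of 36445 against 4857 and 7438 in duodenum pools 2 and 3, and without it 1647 probe sets were higher than in every other tissue and 652 lower, in place of 1609 and 591. Of the 242 genes at least 4-fold higher at hatch that could be tested at day 7, 223 were again called higher (92.1%), against 858 of 10944 genes called higher at that age (7.84%). Of all 780 higher genes tested at both ages, 498 were called again (63.8%). Of the 19 genes at least 4-fold lower, 15 were called lower again (78.9%), and of all 205 lower genes 110 were (53.7%), against 321 of 10944 called lower at day 7 (2.93%). A test of the age difference itself, an interaction term in limma over all 24 arrays, passed for 9 of the 27 genes with the largest excess or deficit and for 21.2% of all genes. Those 27 genes had been picked by the same hatch arrays that enter the test.

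**Figure D5:**
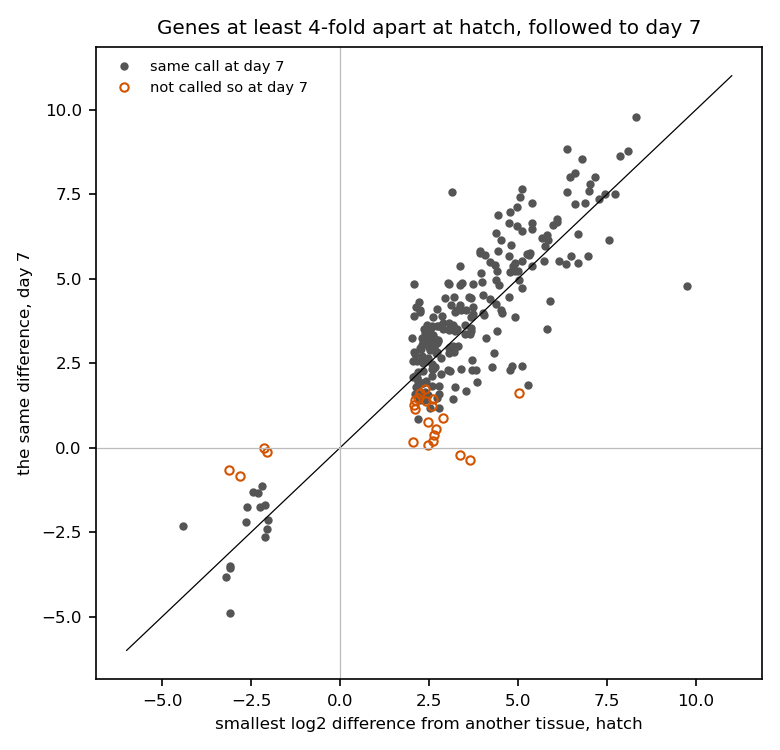
Smallest log2 difference of duodenum from the other tissues at hatch (horizontal) and the same difference at day 7 (vertical) for the genes at least 4-fold apart at hatch and tested at both ages; the line marks equality. Filled points kept their call at day 7 (223 higher and 15 lower) and open points did not. CDKN2B is the point furthest below the line, at 9.75 at hatch and 4.78 at day 7. Its difference from the dimmest other tissue, not drawn, was 10.03 at day 7.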

How the data were processed

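Biotin-labelled RNA was hybridised to Affymetrix chicken arrays, 1 per pool, per the labels' protocols. The authors deposited a linear signal intensity per probe set, computed by MAS5, per the submitters' processing notes, with no version or settings named there. The trimmed mean (2% off each end) was 500.1 on every hatch array, so arrays had been scaled to 1 level and signals are relative. No array held values identical to another's.

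From there, 153 control probe sets of 38535 were left out and log2(signal + 27.8) was taken, 27.8 being the 25th percentile of the hatch signals; differences on this scale understate the change of dim genes. Probe sets were tested where at least 1 tissue mean reached 102.9, the median signal, which left 24710. Genes dim in the other tissues were thus tested only through their duodenum signal, which favours higher calls. Means of the 4 groups were fitted to the 12 hatch arrays with limma 3.58.1 in R 4.3.3 (8 residual and 7.02 prior degrees of freedom). The p-value per probe set was the largest of 3 two-sided tests when all 3 differences had 1 sign, with Benjamini-Hochberg adjustment. The ± is the standard error after a log2 difference and the SD after a signal, n = 3 pools; the number of arrays limits the precision.

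Symbols came from the array's annotation table, 26863 of 27178 single-symbol probe sets being brought up to date through the RefSeq gene table of assembly GRCg7b, and the brightest probe set stood for each gene. For CDX2, MGAM, MOGAT2 and FKBP5, 1 of the 2 other tested probe sets had the same call. For ALPPL, AMY2A, ANLN, FCGBP, PLA2G2E and CSF1R, 2 of the 3 others had it. No array build is named, so coordinates are left out. Named genes are the 15 furthest above and 12 furthest below every tissue with pools that do not overlap, up to 4 called members per direction from each of 43 lists, and 3 per direction for each nearest tissue. Some genes so chosen are not reported here. Further list members and markers were named after their values were seen. The comparison and lists were chosen with earlier results of these data known. Alternatives were other added values and filters, quantile normalization, median centring, all 24 arrays, array weights, no variance trend, the replicate number as a block and each pool left out; leaving out liver pools 2 and 3 together and, for the age difference, duodenum pool 2 of hatch or pool 1 of day 7 was added after seeing the data.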

Additional observations from a re-analysis of the deposited data

Results flagged for a closer look

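For 9 of the 27 genes with the largest excess or deficit, the difference between duodenum and the mean of the other 3 tissues was not the same at day 7 as at hatch, by an interaction term in limma over all 24 arrays; over all genes tested, 2441 of 11541 passed that test (21.2%). The values are the day 7 difference minus the hatch difference on the log2 scale. The 27 genes were picked for extreme hatch differences, and the same hatch arrays enter this test. That choice favours a narrower difference at day 7.

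The excess of RBP2 grew by 1.01 ± 0.31 (adjusted p = 0.0285) and that of ALPPL by 1.70 ± 0.53 (adjusted p = 0.029); both missed the threshold with 1 added to the signal (adjusted p = 0.229 and 0.257). Duodenum pool 1 of day 7, which stood apart in its hybridisation controls, gave 57139 for ALPPL against 22205 and 26572 in pools 2 and 3, and 54932 for RBP2 against 26264 and 37013. Without it the differences were 0.74 for RBP2 and 1.29 for ALPPL and neither passed (adjusted p = 0.139 and 0.121), nor did they without duodenum pool 2 of hatch (0.074 and 0.0666). Among genes low in duodenum, the gap narrowed for PTGDS by 2.01 ± 0.27 (adjusted p = 1.13e-05), for C9ORF58 by 1.20 ± 0.17 (adjusted p = 2.23e-05), for AGPAT3 by 1.12 ± 0.26 (adjusted p = 0.00381) and for MGARP by 0.80 ± 0.22 (adjusted p = 0.0147). It widened for BHMT2, at -1.79 ± 0.21 (adjusted p = 1.68e-06), for TNNC1, at -1.13 ± 0.35 (adjusted p = 0.0283), and for PON1, at -0.72 ± 0.23 (adjusted p = 0.036). PON1 missed the threshold under 5 of 10 alternatives, TNNC1 under 3, and MGARP with median centring (adjusted p = 0.0703).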

How the results depend on the processing

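The counts of genes called in either direction stayed within 1.5 times of the values given under most alternatives. Without liver pools 2 and 3, which leaves 1 liver array assumed to vary like the other groups, 824 probe sets (494 genes) were higher and 211 (119 genes) lower, and 5731 probe sets differed from liver in place of 9464; the smaller number of liver arrays is part of that setting. Array weights gave 605 lower probe sets. The number at least 4-fold lower depended on the value added before the log, with 84 probe sets (38 genes) for 1 and 20 (11 genes) for the median signal, in place of 34 (19 genes), since dim means shrink toward each other as the added value grows. At day 7, 393 probe sets were lower with median centring in place of 591. Leaving out 1 pool at a time gave 1093 to 1377 higher and 305 to 442 lower probe sets (664 to 849 and 163 to 231 genes), 447 to 461 at least 4-fold higher and 32 to 39 at least 4-fold lower (247 to 253 and 17 to 21 genes), 8010 to 10123 different from liver, 13096 to 14335 from brain and 10120 to 12246 from breast muscle, and at day 7 1369 to 1647 higher and 473 to 652 lower. Over all probe sets, deviations of same-numbered pools from their tissue means correlated at -0.21 to 0.14 (18 pairs, median 0.03). Pools of different number gave -0.21 to 0.25 (36 pairs, median -0.01). HINTW, however, was lowest in the same-numbered pool of all 4 tissues at each age. Whether those pools share chicks is not given in the labels. With the number as a replicate block 1274 probe sets were higher and 381 lower, and of the named genes LYN and LYZ lost their call (adjusted p = 0.0565 and 0.0591). Of 164 called genes named by the rule or the text, 133 kept their call in every alternative in which they were tested, 31 lost it in at least 1, and 0 changed direction. Most of those 31 had small differences, such as CDO1 (lost in 14 of 23), LYN and NDUFS4 (11 each) and LYZ (10). The scale of the deposited signals, set by MAS5, and dim probe sets limit what small differences can show.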

Other observations

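Detoxification genes were called in both directions. Of 24 antioxidant and detoxification enzymes, 5 were higher in duodenum than in every other tissue at hatch and 1 was lower. MGST2, a membrane-bound glutathione transferase, gave 5932, 5143 and 6502 in the duodenum pools and 4.73 to 139 (median 63.2) on the 9 other arrays, at 5.39 ± 0.36. GPX2, the glutathione peroxidase of gut epithelium, gave 1925, 1411 and 2852, at 3.86 ± 0.44, and GSR, which regenerates glutathione, was higher by 1.54 ± 0.17. PRDX6, a peroxiredoxin, was lower, at -1.26 ± 0.19. Of 18 interferon response genes, 3 were higher, DDX60 by 3.04 ± 0.42, IFI27L2 by 1.82 ± 0.24 and the transcription factor IRF1 by 1.36 ± 0.23. At day 7 the number was 13. Over all genes, 7.09% were higher at hatch, and 7.84% of those tested at both ages were higher at day 7. The change in the number of interferon genes was not tested.

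Growth and clock genes gave few calls, beside 7.09% higher and 1.83% lower over all genes tested. Lower calls made up 11.1% of the growth genes and 7.14% of the clock genes, from 2 genes and 1 gene. Of 18 genes of growth hormone, IGF and thyroid signalling, 1 was higher, SLC16A10, a carrier of aromatic amino acids and thyroid hormone, by 1.00 ± 0.15, with 1 of its 4 other tested probe sets called, and 2 were lower, IGFBP2, a binding protein of insulin-like growth factors, at -1.51 ± 0.20, and the insulin receptor INSR, at -0.63 ± 0.17 (adjusted p = 0.0318), which lost its call in 12 of 23 alternatives and whose 2 other probe sets were not called. Of 14 clock genes, PER2 was higher by 1.21 ± 0.23 and RORA lower, at -0.58 ± 0.15; other probe sets of both genes were not called, and RORA lost its call in 8 of 23 alternatives and PER2 in 1. Of 20 genes of glycolysis and gluconeogenesis, LDHB, a lactate dehydrogenase subunit, was the single lower one, at -0.57 ± 0.11. Of 25 genes of cholesterol and fatty acid synthesis, ME1, malic enzyme, was higher by 0.61 ± 0.15 and HMGCS1, of the cholesterol pathway, lower, at -0.76 ± 0.18; both were lost with median centring. Of 19 genes of fatty acid oxidation, HADH was higher by 0.50 ± 0.12 and PPARGC1A lower, at -0.62 ± 0.16; median centring ended both calls (adjusted p = 0.25 and 0.127), with losses in 5 and 7 of 23 alternatives, and another probe set of PPARGC1A was not called. Of 7 antigen presentation genes, BLB1, a class II histocompatibility chain, was higher by 0.78 ± 0.17, 1 of its 4 other probe sets had that call, and it was lost with median centring (adjusted p = 0.106) and without liver pools 2 and 3 (0.145). Of 17 fast skeletal muscle genes, LDB3 was lower, at -1.61 ± 0.32, though its 2 other probe sets were not called.

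Genes in no list were picked after their values were seen. ADA, adenosine deaminase, had a mean signal of 19584 ± 866 in duodenum. CFI, complement factor I, had 19294 ± 3008 (its 2 other tested probe sets were not called), and WIF1, a secreted inhibitor of Wnt signals, 6357 ± 892. All 3 were at least 4-fold above every other tissue.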
